A study of Mus musculus with 8 samples.

Results

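This section sets the ERK5 knockdown directly against the MEK5 knockdown in 4T1 cells, across every gene listed for these libraries. The comparison was drawn by library title. The 3 libraries titled 4T1_shERK5-1, called shERK5 below, were compared with the 2 titled 4T1_shMEK5-2, called shMEK5. Together they make 5 of the 8 libraries of the series. The other 3, titled shCTRL, are given beside as the background measured the same way. 4T1 is a mouse mammary carcinoma line that forms metastases. All cells had been infected with a lentivirus made in HEK293T cells, a human packaging line, and selected with puromycin. The virus carried a short hairpin RNA, which directs the destruction of a matching messenger RNA. The hairpin was aimed at murine MEK5 in shMEK5, at murine ERK5 in shERK5, and at no mouse gene in the Non-Targeting shCTRL vector. Each target had 1 hairpin, so an effect of the target and an effect of that hairpin on other RNAs cannot be told apart. Total RNA was depleted of ribosomal RNA and sequenced with a strand-specific kit. The labels name replicates but do not say whether these were separate infections or cultures. A p-value below therefore speaks to the variation among libraries of a group, part or all of which could be technical.

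MEK5 and ERK5 form the last steps of a mitogen-activated protein kinase cascade. MEK5, the product of Map2k5, phosphorylates ERK5, the product of Mapk7, and is itself activated by the kinases MEKK2 and MEKK3, the products of Map3k2 and Map3k3. ERK5 is unusual among these kinases in carrying a long C-terminal tail that can activate transcription, and MEF2 factors are among its known substrates. Loss of the upstream kinase removes the activating phosphorylation, whereas loss of ERK5 removes the whole protein, kinase domain and tail together. A direct comparison of both knockdowns addresses where the transcripts that follow from each loss part.

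The libraries held between 41397315 and 53714288 reads assigned to genes. Values are CPM, in which each library is scaled to 1000000 gene-assigned reads, and are not divided by gene length, so levels are compared between libraries and not between genes. Of 24454 genes listed, 11623 reached at least 1 CPM in at least 2 of the 8 libraries and were tested. The first principal component of the tested genes held 63.2% of the variance, the second 25.1% and the third 5.17%. On the third component, shERK5 replicates 1 and 2 lay farthest apart, and shMEK5 replicates 1 and 2 lay on opposite sides of 0. Replicate 1 of shMEK5 and of shERK5 lay on the same side, and so did replicate 2 of each. Each of the 6 carcinoma cell markers was present in every library, with summed levels between 1330 and 1394 CPM in shMEK5 and between 1578 and 1629 CPM in shERK5. In shCTRL they summed to between 1761 and 1949 CPM, above both knockdowns. Of 7 leukocyte markers, 5 were at 3 reads or fewer in every library, and so were 4 of 6 fibroblast markers (Dcn, Lum, Col3a1 and Thy1) and 3 of 5 endothelial markers (Cdh5, Kdr and Tek). The leukocyte list, carried by Cd68, summed to between 1.88 and 2.13 CPM in shMEK5 and between 2.85 and 3.67 CPM in shERK5. Its sums in shCTRL were between 2.96 and 3.18 CPM. The fibroblast list, carried by Pdgfra, summed to between 34.2 and 35.8 CPM in shMEK5 and between 22.8 and 28.2 CPM in shERK5. Its sums in shCTRL were between 31.6 and 47 CPM. The endothelial list summed to between 0.295 and 0.387 CPM in shMEK5 and between 0.132 and 0.225 CPM in shERK5, levels of a few reads per library. In shCTRL it summed to between 0.0702 and 0.153 CPM.

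Stretches of promoter are shown first for genes that separate the knockdowns, because these genes belong to groups with well-known control elements. The sequences are from RefSeq on GRCm38.p6. The 250 bases before each annotated start were searched on both strands for 6 short patterns. The search found a promoter for 9246 of the 11623 tested genes. Capitals mark every match to a pattern. A match describes letters in the window and says nothing of a bound factor. The first set shows the core of the interferon-stimulated response element, GAAA, any 2 bases and GAAA, and an NF-kB element pattern, GGGA, any 2 bases and TTCC. The response element pattern stood in 2.98% of all 32851 promoters, in 3.04% of those of tested genes and in 15 of the 37 interferon response genes with a promoter (40.5%). The NF-kB pattern stood in 1.21% of all promoters and in 5 of the 18 listed NF-kB target genes with one (27.8%). Cxcl10 holds both patterns, and Cxcl1 is shown as a listed chemokine whose difference between the knockdowns did not pass the test. The genes shown were chosen with their values known. In Isg15 and in Cxcl1, neighbouring matches overlap.
Ifnb1, chr4:88522886-88522925, minus strand: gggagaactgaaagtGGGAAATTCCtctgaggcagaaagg
Cxcl10, chr5:92349024-92349117, minus strand: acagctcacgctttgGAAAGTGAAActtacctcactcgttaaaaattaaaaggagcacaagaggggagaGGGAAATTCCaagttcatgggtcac
Cxcl1, chr5:90891159-90891199, plus strand: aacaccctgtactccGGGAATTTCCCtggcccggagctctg
Ifit1, chr19:34640770-34640828, plus strand: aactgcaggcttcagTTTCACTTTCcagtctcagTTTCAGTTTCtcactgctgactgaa
Rsad2, chr12:26456548-26456587, minus strand: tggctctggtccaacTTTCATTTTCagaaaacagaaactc
Isg15, chr4:156200860-156200911, minus strand: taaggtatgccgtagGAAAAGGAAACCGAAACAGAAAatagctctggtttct

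The second set belongs to genes of cell division, of the lysosome and of the YAP/TAZ programme. CCAAT and TTTGAA, the CCAAT box and the cell cycle genes homology region (CHR), are elements known from promoters that are active in mitosis. TTTGAA stood in 16% of all promoters, in 12.6% of those of tested genes and in 13 of 41 listed mitotic genes (31.7%), and CCAAT in 33.8%, 41.7% and 30 of 41 (73.2%). CACGTG, an E-box that TFEB and related factors can bind, stood in 6.02% of all promoters, in 10.1% of those of tested genes and in 9 of 28 listed lysosome and autophagy genes (32.1%). GGAATG, the core of the TEAD element, stood in 12.6% of all promoters and in 9 of 13 listed YAP/TAZ targets (69.2%). Axl, which was lower in shERK5 than in shMEK5, and Ccn1, whose difference did not pass the test, both hold this element. The lists were drawn up from knowledge of such control, so their shares of matches are a description of the lists. Mki67, Kif11, Lamp1, Glb1 and Ccn1 were chosen for display after their values were seen.
Mki67, chr7:135716457-135716582, minus strand: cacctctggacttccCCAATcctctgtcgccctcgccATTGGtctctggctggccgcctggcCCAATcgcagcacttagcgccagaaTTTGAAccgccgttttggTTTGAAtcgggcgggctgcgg
Kif11, chr19:37376322-37376381, plus strand: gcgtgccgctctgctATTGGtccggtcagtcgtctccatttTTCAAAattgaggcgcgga
Lamp1, chr8:13159085-13159160, plus strand: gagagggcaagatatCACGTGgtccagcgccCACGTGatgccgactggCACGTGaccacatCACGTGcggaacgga
Glb1, chr9:114401015-114401050, plus strand: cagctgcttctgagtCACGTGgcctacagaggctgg
Axl, chr7:25788946-25788981, minus strand: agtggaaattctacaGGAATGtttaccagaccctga
Ccn1, chr3:145650068-145650103, minus strand: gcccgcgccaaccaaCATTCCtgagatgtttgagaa

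Between the knockdowns, 4581 of 11623 tested genes passed the test (39.4%), 2561 of them higher in shERK5 (22%) and 2020 lower (17.4%). The test was limma on log2(CPM + 1), adjusted by the Benjamini-Hochberg method over all genes tested and called at an adjusted p under 0.05. Fold changes below are on that scale, shERK5 minus shMEK5, and understate the change of genes with low levels. Most differences were small, with a median size of 0.17 on the log2 scale over all tested genes and 0.35 over those called. Differences of at least 2-fold were fewer, with 47 genes higher in shERK5 (0.404%) and 143 lower (1.23%). Large differences thus ran more often towards a lower level in shERK5. The counts of 2-fold differences depend on the added constant of 1: edgeR on the recovered reads gave 110 higher and 244 lower, again more lower than higher. The number called was 2864 without shMEK5 replicate 1, of which 2807 were among the 4581, and 0 had the opposite sign.

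**Figure D1:**
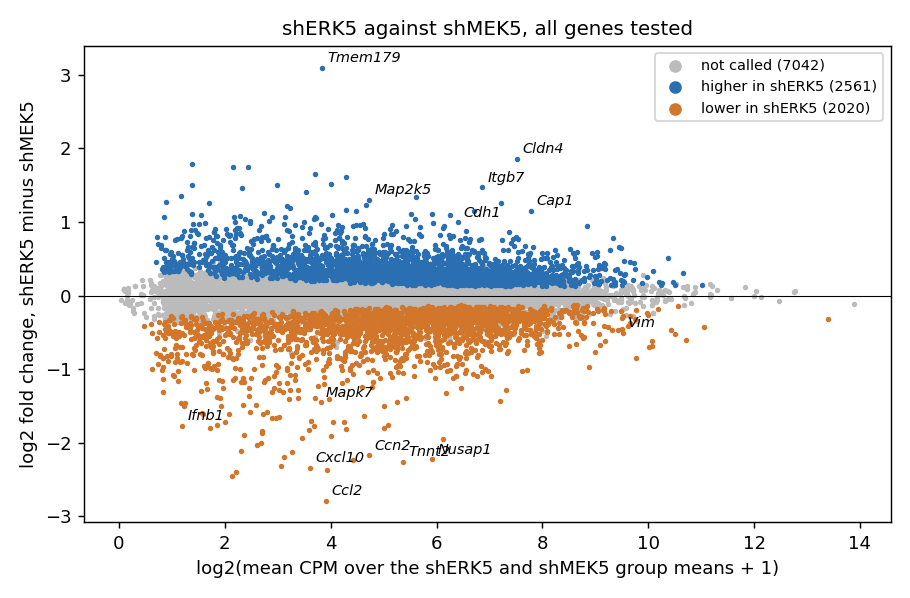
Each point is a tested gene, with the log2 of its mean CPM over the shERK5 and shMEK5 groups plus 1 on the horizontal axis and its log2 fold change, shERK5 minus shMEK5, on the vertical axis. Blue marks the 2561 genes called higher in shERK5, orange the 2020 called lower and grey the rest; the points below -1 (143 called genes) outnumber those above 1 (47 called genes).

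Both targets marked their own libraries. Map2k5 (chromosome 9, 63163768 to 63381682, GRCm38) stood at 36.1, 36.8 and 37.1 CPM in shERK5 replicates 1, 2 and 3, at 14.1 and 14.4 CPM in shMEK5 replicates 1 and 2, and at 35.2, 37 and 36.8 CPM in shCTRL. The shMEK5 libraries lay below all others and the shERK5 libraries lay within the range of shCTRL or at most just above it. Mapk7 (chromosome 11, 61488812 to 61494267) stood at 6.59, 6.33 and 6.66 CPM in shERK5, at 20.4 and 18.7 CPM in shMEK5 and at 25.6, 28.6 and 26.1 CPM in shCTRL. The 3 groups did not overlap, and shMEK5 lay between the others. The log2 fold change between the knockdowns was 1.31, SE 0.06, adjusted p = 1.7e-07 for Map2k5 and -1.45, SE 0.08, adjusted p = 6.13e-07 for Mapk7. The transcript of ERK5 thus fell in the MEK5 knockdown as well (log2 fold change -0.44, SE 0.08, adjusted p = 0.000923 against shCTRL), whereas the difference of the MEK5 transcript between the ERK5 knockdown and shCTRL was 0.01, SE 0.05, adjusted p = 0.848.

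Among the other 17 tested genes listed around this cascade, 2 were higher in shERK5 and 4 lower. The kinase genes above MEK5 differed little. Map3k2 stood at 213, 174 and 159 CPM in shERK5, 197 and 178 CPM in shMEK5 and 223, 191 and 214 CPM in shCTRL and did not pass the test (log2 fold change -0.06, SE 0.12, adjusted p = 0.749), and Map3k3 stood at 103, 110.0 and 116 CPM in shERK5, 85.7 and 88.9 CPM in shMEK5 and 100.0, 101 and 102 CPM in shCTRL and was higher in shERK5 (log2 fold change 0.32, SE 0.06, adjusted p = 0.00136). Of the MEF2 transcription factors downstream, Mef2a, Mef2b and Mef2d did not pass the test, and Mef2c was below the filter. Sgk1, a survival kinase reported as an output of the cascade, stood at 57.9, 59.6 and 60.5 CPM in shERK5, 119.5 and 129.5 CPM in shMEK5 and 81.1, 80.9 and 79.3 CPM in shCTRL. The knockdowns lay on opposite sides of the control and differed from each other (log2 fold change -1.06, SE 0.05, adjusted p = 4.27e-07). Ccnd1, cyclin D1, showed the same order and stood at 1321, 1299.9 and 1363 CPM in shERK5, 2105 and 1949.9 CPM in shMEK5 and 1685, 1799 and 1793 CPM in shCTRL (log2 fold change -0.61, SE 0.05, adjusted p = 1.28e-05). It overlaps the gene LTO1 on the genome, and whether counting used strand is unknown here. Myc stood at 342, 319 and 376 CPM in shERK5, 457 and 432 CPM in shMEK5 and 276, 339 and 368 CPM in shCTRL (log2 fold change -0.37, SE 0.11, adjusted p = 0.0332), so that its shERK5 libraries overlapped shCTRL. The call of Myc was lost without shERK5 replicate 1 or 2 (limma adjusted p = 0.0653 and 0.0967) and with no filter (0.0542). It was also lost without shMEK5 replicate 1 or 2, where the log2 fold change was -0.33 or -0.41. Klf4, a zinc finger factor induced through this cascade in other cells, stood at 9.7, 7.74 and 8.7 CPM in shERK5, 12.6 and 10.2 CPM in shMEK5 and 14.2, 14.4 and 14.6 CPM in shCTRL (log2 fold change -0.35, SE 0.10, adjusted p = 0.0219). Klf4 lost its call without shERK5 replicate 2 or 3 (limma adjusted p = 0.0648 and 0.0533) and when only the shERK5 and shMEK5 libraries were fitted (0.0521). It also lost it without shMEK5 replicate 1, where its log2 fold change was -0.21. Sqstm1, the autophagy receptor p62, stood at 1754, 1805 and 1787 CPM in shERK5, 1413 and 1466 CPM in shMEK5 and 2128, 2223 and 2142 CPM in shCTRL (log2 fold change 0.31, SE 0.04, adjusted p = 0.000343). For Klf4 and Sqstm1 all knockdown libraries lay under shCTRL, with shERK5 the lowest group for Klf4 and shMEK5 for Sqstm1. Over the whole list of 21 genes, 19 of them tested, 3 were higher (15.8%, beside 22% of all tested genes), 5 lower (26.3%, beside 17.4%) and the median log2 fold change was -0.14, beside 0.02 over all genes tested. Neither share is far from that of all genes. The number lower was 3 without shMEK5 replicate 1 or without shERK5 replicate 2.

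**Figure D2:**
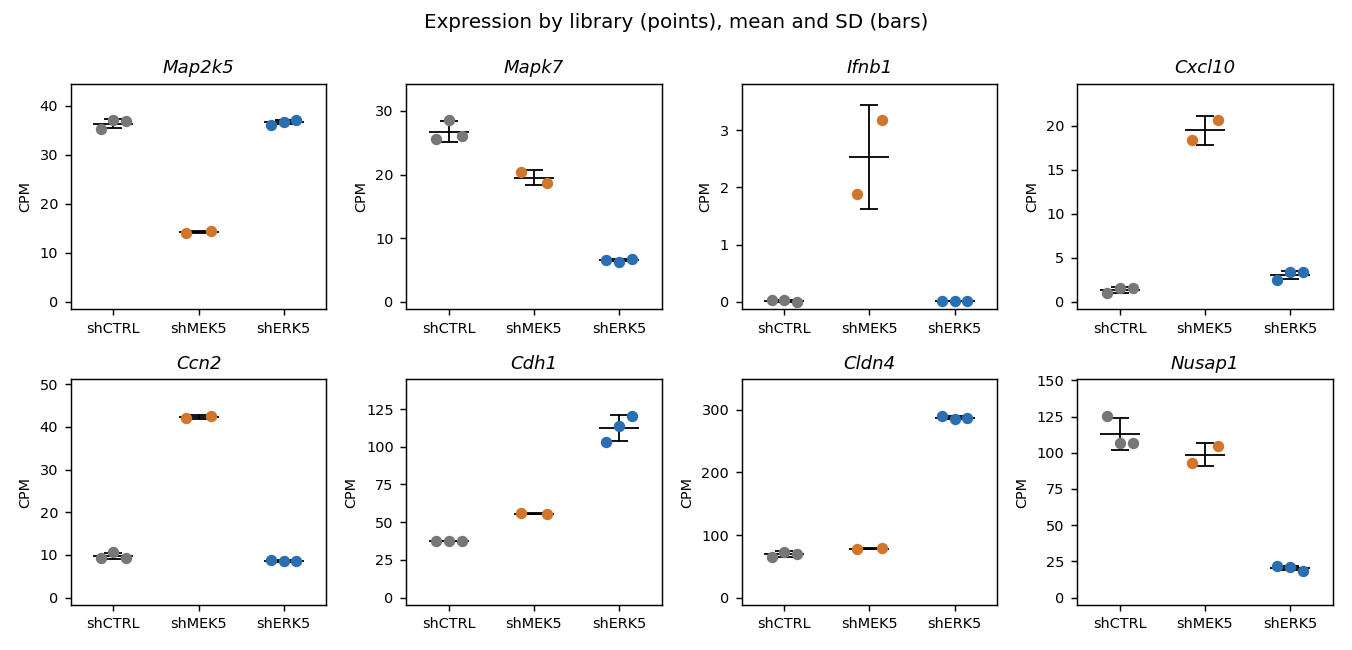
CPM of 8 genes in each library (points), with the group mean and SD (bars); grey is shCTRL, orange shMEK5 and blue shERK5, and each panel has its own axis. Map2k5 was low in shMEK5 and Mapk7 in shERK5, while Ifnb1, Cxcl10 and Ccn2 stood highest in shMEK5, Cdh1 and Cldn4 in shERK5, and Nusap1 was low in shERK5.

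Interferon-stimulated genes were lower after ERK5 knockdown than after MEK5 knockdown. Type I interferons are secreted proteins that bind the receptor Ifnar1/Ifnar2 and, through factors that include STAT2 and IRF9, switch on antiviral genes. Of 48 tested genes of this response, 42 were lower in shERK5 than in shMEK5 (87.5%, beside 17.4% of all genes), with a median log2 fold change of -0.79. Higher were 2 (4.17%, beside 22%), and 4 did not pass the test. Among members with a mean of at least 5 CPM, 26 were lower and 1 was higher. The list lay above shCTRL in both knockdowns: 44 of 48 were higher in shMEK5 than in shCTRL, where 23.1% of all tested genes were, with a median of 1.53. In shERK5, 39 were higher than in shCTRL, where 32% of all tested genes were, with a median of 0.55. Both of these contrasts share the shCTRL libraries. In the direct comparison, Ifit3, Ifit3b and Mx1 had passed the filter through shMEK5 alone, so a lower level in shERK5 was given by that choice.

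Ifnb1, which encodes interferon beta (chromosome 4, 88522025 to 88522794), was close to absent outside shMEK5. The stretch of its promoter with the NF-kB element stands first in the sequences above. It had 78 and 151 reads in shMEK5 replicates 1 and 2, which is 1.88 and 3.18 CPM, and 1 read in each of the 3 shERK5 libraries. The shCTRL libraries had 2, 1 and 0 reads. Pooled by group, the level in shMEK5 was 130 times that in shERK5, with a 95% exact interval of 43.9 to 635 that covers counting error only. On the fitted scale the difference was -1.77 (SE 0.14, adjusted p = 8.19e-06). The gene passed the filter through shMEK5 alone, so some difference was given by that choice. Ifnb1 was the only gene with an established symbol that had at most 3 reads in every library of one knockdown and at least 2 CPM on average in the other. Ifng, interferon gamma, had 0 reads in all 8 libraries.

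The antiviral effectors carried the largest differences of the list. Ifit1, which binds foreign RNA, stood at 5.92, 5.67 and 5.67 CPM in shERK5, 24.3 and 24.2 CPM in shMEK5 and 4.36, 4.14 and 4.25 CPM in shCTRL (log2 fold change -1.90, SE 0.07, adjusted p = 1.06e-07). Cmpk2, a mitochondrial nucleotide kinase induced by interferon, stood at 2.1, 2.05 and 2.2 CPM in shERK5, 13 and 13.4 CPM in shMEK5 and 0.672, 0.982 and 0.679 CPM in shCTRL (log2 fold change -2.19, SE 0.10, adjusted p = 2.19e-07). In both genes the shMEK5 libraries were far above the rest, and shERK5 lay closer to shCTRL. Mx2, of the dynamin-like antiviral GTPase family but listed as a transcribed pseudogene in the annotation used, stood at 1.62, 2.07 and 1.8 CPM in shERK5, 9.32 and 9.23 CPM in shMEK5 and 2.02, 1.92 and 2.04 CPM in shCTRL (log2 fold change -1.86, SE 0.09, adjusted p = 4.17e-07), so that shERK5 overlapped the control. Gbp3, a guanylate-binding protein, stood at 1.55, 1.5 and 1.21 CPM in shERK5, 9.45 and 8.23 CPM in shMEK5 and 0.653, 0.678 and 0.657 CPM in shCTRL (log2 fold change -2.02, SE 0.10, adjusted p = 4.17e-07). Usp18, which removes ISG15 from proteins and brakes the interferon receptor, stood at 3.57, 3.76 and 3.33 CPM in shERK5, 17 and 15.9 CPM in shMEK5 and 0.615, 1.05 and 0.679 CPM in shCTRL (log2 fold change -1.94, SE 0.11, adjusted p = 1.29e-06). In Usp18 shERK5 lay above shCTRL and well below shMEK5. Rsad2, the antiviral protein viperin, stood at 7.8, 7.23 and 8.66 CPM in shERK5, 28.1 and 28.3 CPM in shMEK5 and 1.81, 2.69 and 2.74 CPM in shCTRL (log2 fold change -1.72, SE 0.13, adjusted p = 5.06e-06). Isg15, a ubiquitin-like protein, stood at 1.53, 2.55 and 2.14 CPM in shERK5, 5.82 and 7.93 CPM in shMEK5 and 1.33, 0.632 and 0.898 CPM in shCTRL (log2 fold change -1.36, SE 0.19, adjusted p = 0.000476). No shERK5 library reached the shMEK5 range for any of these 7 genes. Ifit1 overlaps Ifit1bl1 on the genome.

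The factors that carry the interferon signal differed in the same direction. Irf9, part of the transcription complex that interferon activates, stood at 27.1, 31.7 and 29.6 CPM in shERK5, 62.8 and 64.3 CPM in shMEK5 and 23.6, 22.1 and 23.1 CPM in shCTRL (log2 fold change -1.09, SE 0.07, adjusted p = 2.38e-06). Irf7, the factor that amplifies interferon production, stood at 4.19, 4.09 and 4 CPM in shERK5, 12.6 and 12.5 CPM in shMEK5 and 1.77, 2.18 and 2.21 CPM in shCTRL (log2 fold change -1.41, SE 0.09, adjusted p = 2.18e-06). Both factors were lowest in shCTRL and highest in shMEK5. Oas1a, an RNA-sensing synthetase, differed less and stood at 11.6, 12.8 and 12.3 CPM in shERK5, 14 and 15.2 CPM in shMEK5 and 4.9, 4.96 and 4.69 CPM in shCTRL (log2 fold change -0.24, SE 0.08, adjusted p = 0.0315), a call lost without shMEK5 replicate 1 or 2 or without shERK5 replicate 1 or 3 (limma adjusted p from 0.0602 to 0.202). Its neighbour Oas1g stood at 16.6, 18.8 and 18.5 CPM in shERK5, 20.7 and 20.7 CPM in shMEK5 and 6.55, 5.85 and 6.31 CPM in shCTRL and did not pass the test (log2 fold change -0.20, SE 0.08, adjusted p = 0.0716), like Herc6, Ifitm3 and Isg20. With edgeR on the recovered reads, Oas1g passed (adjusted p = 0.0405). The members higher in shERK5 were Lgals3bp, a secreted glycoprotein, and Epsti1. Lgals3bp stood at 14, 14.3 and 16.2 CPM in shERK5, 9.81 and 10.1 CPM in shMEK5 and 14.4, 16.3 and 14.2 CPM in shCTRL (log2 fold change 0.53, SE 0.09, adjusted p = 0.000864), so that shERK5 overlapped shCTRL and shMEK5 was the low group. Epsti1 stood at 2.57, 2.72 and 2.52 CPM in shERK5, 0.918 and 1.64 CPM in shMEK5 and 1.27, 1.12 and 1.29 CPM in shCTRL (log2 fold change 0.68, SE 0.13, adjusted p = 0.00188).

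Among the sensors and receptors upstream, most genes did not pass the test. Of 34 tested genes of interferon sensing and receptor signalling, 5 were higher in shERK5 (14.7%, beside 22% of all genes), 10 were lower (29.4%, beside 17.4%) and 19 did not pass the test, with a median of -0.08. These counts depend on single libraries, and the counts over all tested genes also fell when either shMEK5 library was left out. Without shMEK5 replicate 2, 3 were lower and 3 higher. Without shMEK5 replicate 1, 2 were higher, and without shERK5 replicate 2 or 3, 3 were higher. The RNA sensor genes Ddx58, itself induced by interferon, and Ifih1 are not counted among these 34. Ddx58 (RIG-I) stood at 109, 112 and 121 CPM in shERK5, 158 and 172 CPM in shMEK5 and 54.8, 56.2 and 60 CPM in shCTRL (log2 fold change -0.53, SE 0.06, adjusted p = 0.000138), and Ifih1 (MDA5) stood at 18.7, 14.9 and 15.2 CPM in shERK5, 28.1 and 30.1 CPM in shMEK5 and 9.78, 9.33 and 8.91 CPM in shCTRL (log2 fold change -0.81, SE 0.10, adjusted p = 0.000127). Cgas, the cytosolic DNA sensor, stood at 24, 24.9 and 23.4 CPM in shERK5, 25.5 and 25.8 CPM in shMEK5 and 19.3, 18.4 and 18.3 CPM in shCTRL and did not pass the test (log2 fold change -0.08, SE 0.06, adjusted p = 0.308). Trex1, a nuclease that removes cytosolic DNA, stood at 11.6, 12.7 and 14 CPM in shERK5, 25.8 and 27.5 CPM in shMEK5 and 12.2, 12.4 and 11.8 CPM in shCTRL (log2 fold change -1.01, SE 0.08, adjusted p = 1.01e-05). For Trex1, shERK5 overlapped shCTRL and shMEK5 lay far above both. Ifnb1, given above, is also among the 10 that were lower, and its lower level was given by the filter. Apart from Ifnb1, Trex1 had the smallest limma adjusted p of the 34. Jak1, which overlaps Raver2 on the genome, stood at 132, 130 and 135 CPM in shERK5. Its shMEK5 libraries had 171 and 167 CPM and its shCTRL libraries 160, 157 and 162 CPM (log2 fold change -0.35, SE 0.05, adjusted p = 0.000203). Irf1, an interferon-regulated factor, stood at 80.6, 88.1 and 88.6 CPM in shERK5, 115 and 123 CPM in shMEK5 and 59, 56.6 and 54.9 CPM in shCTRL (log2 fold change -0.46, SE 0.06, adjusted p = 0.000217). Among the receptor genes, Ifnar1 did not pass the test (log2 fold change -0.09, SE 0.09, adjusted p = 0.411) and stood at 36.5, 45 and 40.5 CPM in shERK5, 42.2 and 44.5 CPM in shMEK5 and 53.9, 47.7 and 50.4 CPM in shCTRL. Ifnar2 stood at 24.8, 22.9 and 24.6 CPM in shERK5, 29.1 and 28.8 CPM in shMEK5 and 26.4, 29.4 and 30.6 CPM in shCTRL (log2 fold change -0.26, SE 0.07, adjusted p = 0.0185) and lost its call without shMEK5 replicate 1 or 2 or shERK5 replicate 2 (limma adjusted p = 0.0991, 0.0738 and 0.057). Ifnlr1, for type III interferon, was higher in shERK5 and stood at 5.55, 6.07 and 5.92 CPM in shERK5, 3.26 and 3.6 CPM in shMEK5 and 2.9, 3.02 and 2.52 CPM in shCTRL (log2 fold change 0.63, SE 0.09, adjusted p = 0.000426). The other 4 higher members were Irf3, Mavs, Ikbke and Ptpn6.

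Genes of MHC class I presentation ran the other way. This pathway cuts cytosolic proteins, pumps the peptides into the endoplasmic reticulum and loads them on class I molecules for display. Of 20 tested genes, 12 were higher in shERK5 than in shMEK5 (60%, beside 22% of all genes), 2 were lower (10%, beside 17.4%; 1 without shMEK5 replicate 1 or shERK5 replicate 3) and 6 did not pass the test, with a median of 0.29 beside 0.02 over all genes. Tap2, a subunit of the peptide pump, stood at 82.7, 84.9 and 85.2 CPM in shERK5, 46.2 and 48.4 CPM in shMEK5 and 40.2, 37.4 and 34.5 CPM in shCTRL (log2 fold change 0.82, SE 0.07, adjusted p = 9.22e-06). Psmb9, an immunoproteasome subunit, stood at 5.03, 5.13 and 5.35 CPM in shERK5, 2.39 and 2.15 CPM in shMEK5 and 1.21, 1.15 and 1.23 CPM in shCTRL (log2 fold change 0.92, SE 0.09, adjusted p = 2.23e-05). For both genes shERK5 was the highest group, without overlap. Calr, the chaperone calreticulin, stood at 387, 387 and 413 CPM in shERK5, 274 and 289 CPM in shMEK5 and 253, 275 and 265 CPM in shCTRL (log2 fold change 0.49, SE 0.06, adjusted p = 7.65e-05). B2m, the light chain of class I molecules, was lower in shERK5 and stood at 573, 568 and 587 CPM in shERK5, 807 and 783 CPM in shMEK5 and 586, 614 and 621 CPM in shCTRL (log2 fold change -0.46, SE 0.05, adjusted p = 3.53e-05). shMEK5 was the high group for B2m, and shERK5 overlapped shCTRL. B2m overlaps Patl2 on the genome. The other member that was lower, H2-T23, and the heavy chain gene H2-K1 were chosen after their values were seen. H2-T23 stood at 102, 105 and 99.3 CPM in shERK5, 122 and 114 CPM in shMEK5 and 87.2, 88.1 and 82.7 CPM in shCTRL (log2 fold change -0.21, SE 0.05, adjusted p = 0.0127), and its adjusted p was 0.138 without shMEK5 replicate 1 and 0.0514 without shERK5 replicate 3 (limma). H2-K1 was higher in shERK5 and stood at 855, 817 and 842 CPM in shERK5, 689 and 672 CPM in shMEK5 and 461, 506 and 489 CPM in shCTRL (log2 fold change 0.30, SE 0.05, adjusted p = 0.00103). Heavy chain genes are near copies of each other, and the rule for counting shared reads is unknown here.

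Chemokines and other NF-kB targets were split by gene. NF-kB is a family of factors held in the cytosol by inhibitors such as Nfkbia and released by inflammatory signals. Of 28 tested targets, 12 were lower in shERK5 (42.9%, beside 17.4% of all genes), 4 were higher (14.3%, beside 22%) and 12 did not pass the test, with a median of -0.17. Of those lower, Ccl7, named after its values were seen, passed the filter through shMEK5 alone, so a lower level in shERK5 was given by that choice. Ccl2, a chemokine for monocytes (chromosome 11, 82035577 to 82037452), stood at 2.66, 3.16 and 2.54 CPM in shERK5, 22.4 and 28 CPM in shMEK5 and 5.94, 7.91 and 8.14 CPM in shCTRL (log2 fold change -2.78, SE 0.14, adjusted p = 5.51e-07). Ccl20, a chemokine for dendritic cells and lymphocytes, stood at 0.223, 0.394 and 0.472 CPM in shERK5, 6.57 and 6.31 CPM in shMEK5 and 1.75, 1.94 and 2.08 CPM in shCTRL (log2 fold change -2.45, SE 0.10, adjusted p = 1.6e-07). For both chemokines the knockdowns lay on either side of the control. Cxcl10, a chemokine for T cells that interferon also induces, stood at 2.49, 3.34 and 3.35 CPM in shERK5, 18.3 and 20.7 CPM in shMEK5 and 0.999, 1.57 and 1.62 CPM in shCTRL (log2 fold change -2.34, SE 0.14, adjusted p = 1.53e-06), and its relative Cxcl11 stood at 0.726, 1.01 and 0.855 CPM in shERK5, 6.79 and 7.3 CPM in shMEK5 and 0.135, 0.234 and 0.131 CPM in shCTRL (log2 fold change -2.11, SE 0.10, adjusted p = 3.72e-07). Both were highest in shMEK5 and lowest in shCTRL, and both overlap Art3 on the genome. Cxcl11 is listed as a transcribed pseudogene in the annotation used. The members higher in shERK5 were Lcn2 and, named after their values were seen, Cxcl5, Cxcl16 and Tnfaip2. Lcn2, the iron carrier lipocalin 2, stood at 17.4, 19.6 and 18.9 CPM in shERK5, 5.82 and 4.75 CPM in shMEK5 and 9.93, 9.01 and 10.7 CPM in shCTRL (log2 fold change 1.65, SE 0.10, adjusted p = 1.55e-06), in the reverse order of Ccl2. Also chosen after their values were seen, the subunit gene Rela stood at 51.4, 50.8 and 54.4 CPM in shERK5, 50.2 and 54.4 CPM in shMEK5 and 44.3, 48.2 and 49.1 CPM in shCTRL (log2 fold change 0, SE 0.06, adjusted p = 0.986), Cxcl1 stood at 33.5, 29 and 32.9 CPM in shERK5, 28.1 and 27 CPM in shMEK5 and 21.1, 23.3 and 23.2 CPM in shCTRL (log2 fold change 0.20, SE 0.08, adjusted p = 0.0662), and neither passed the test. Without shERK5 replicate 2, Cxcl1 passed (limma adjusted p = 0.0219). Il6, likewise chosen, was below the filter and stood at 0.0372, 0.0564 and 0.135 CPM in shERK5, 0.507 and 0.947 CPM in shMEK5 and 0.0769, 0.0234 and 0.131 CPM in shCTRL.

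Genes of epithelial junctions and keratins were more often higher than lower after ERK5 knockdown. Epithelial cells are joined by E-cadherin and by tight junctions of claudins and occludin, and loss of these marks the epithelial-mesenchymal transition. Of 43 tested genes, 20 were higher in shERK5 than in shMEK5 (46.5%, beside 22% of all genes), with a median of 0.23. Lower were 3 (6.98%, beside 17.4%), and 20 did not pass the test. Cldn4, a tight junction claudin (chromosome 5, 134945123 to 134946934), stood at 291, 285 and 287 CPM in shERK5, 77.6 and 79.3 CPM in shMEK5 and 65, 73.4 and 70.1 CPM in shCTRL (log2 fold change 1.86, SE 0.06, adjusted p = 4.09e-08). All shERK5 libraries were far above the rest. Cdh1, E-cadherin, stood at 103, 113 and 121 CPM in shERK5, 55.8 and 55.4 CPM in shMEK5 and 37.6, 37.2 and 37.5 CPM in shCTRL (log2 fold change 1.00, SE 0.07, adjusted p = 2.38e-06), and the 3 groups did not overlap. Crb3, which sets the apical side of the cell, stood at 16.6, 14 and 16.6 CPM in shERK5, 5.31 and 5.28 CPM in shMEK5 and 4.38, 5.52 and 5.17 CPM in shCTRL (log2 fold change 1.41, SE 0.10, adjusted p = 5.43e-06), with shMEK5 inside the range of shCTRL. Ocln, occludin, stood at 86.7, 87.3 and 88.8 CPM in shERK5, 61.8 and 60.4 CPM in shMEK5 and 83, 72.9 and 73.5 CPM in shCTRL (log2 fold change 0.51, SE 0.06, adjusted p = 0.000121), with the control between the knockdowns. Cdh1 and Crb3 thus differ in order from Ocln: in the first pair shCTRL was at or below shMEK5.

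Other members followed only in part. Epcam, an epithelial adhesion molecule, stood at 27.5, 30.8 and 27 CPM in shERK5, 13.6 and 14.8 CPM in shMEK5 and 14.4, 13.6 and 11.6 CPM in shCTRL (log2 fold change 0.95, SE 0.10, adjusted p = 3.89e-05), and the keratin gene Krt7 stood at 227, 228 and 234 CPM in shERK5, 132 and 133 CPM in shMEK5 and 133, 143 and 131 CPM in shCTRL (log2 fold change 0.79, SE 0.05, adjusted p = 2.38e-06). In both genes shERK5 was the high group and shMEK5 overlapped shCTRL. The paired simple keratins did not pass the test: Krt8 stood at 391, 373 and 385 CPM in shERK5, 380.3 and 379 CPM in shMEK5 and 554, 577 and 518 CPM in shCTRL (log2 fold change 0.01, SE 0.05, adjusted p = 0.88) and Krt18 stood at 753, 807 and 762 CPM in shERK5, 702 and 759.8 CPM in shMEK5 and 1174, 1133 and 1026 CPM in shCTRL (log2 fold change 0.08, SE 0.06, adjusted p = 0.335). Krt14, a basal keratin that passed the filter through shMEK5 alone, stood at 0.335, 0.244 and 0.36 CPM in shERK5, 1.84 and 1.75 CPM in shMEK5 and 0.461, 0.327 and 0.241 CPM in shCTRL (log2 fold change -1.09, SE 0.10, adjusted p = 2.71e-05). The other members lower in shERK5 were the epithelial factor Ovol1 and the junction scaffold Tjp1. Without either shMEK5 library, 1 of the 3 was lower.

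Mesenchymal and matrix genes included some that were lower in shERK5 and some that were higher. Of 29 tested, 11 were lower in shERK5 (37.9%, beside 17.4% of all genes), 6 were higher (20.7%, near the 22% of all genes) and 12 did not pass the test, with a median of -0.15. Vim, the intermediate filament vimentin, stood at 574, 634 and 605 CPM in shERK5, 845 and 871 CPM in shMEK5 and 2203, 1904 and 1724 CPM in shCTRL (log2 fold change -0.51, SE 0.09, adjusted p = 0.00177). Both knockdowns were under the control, and shERK5 was the lower of the pair. Tnc, the matrix glycoprotein tenascin C, stood at 3.84, 4.38 and 4.57 CPM in shERK5, 16.1 and 19.3 CPM in shMEK5 and 12.3, 11.9 and 13.2 CPM in shCTRL (log2 fold change -1.83, SE 0.10, adjusted p = 7.2e-07), so that the knockdowns lay on opposite sides of the control. Fn1, fibronectin, stood at 842, 817 and 866 CPM in shERK5, 1428 and 1165 CPM in shMEK5 and 1066, 1092 and 1155 CPM in shCTRL (log2 fold change -0.62, SE 0.08, adjusted p = 0.000162). Inhba, the activin A subunit, stood at 2.77, 2.8 and 2.68 CPM in shERK5, 10.9 and 10.9 CPM in shMEK5 and 2.9, 2.53 and 2.74 CPM in shCTRL (log2 fold change -1.67, SE 0.08, adjusted p = 4.27e-07), and shERK5 overlapped shCTRL. Postn, periostin, which passed the filter through shMEK5 alone, stood at 0.316, 0.225 and 0.135 CPM in shERK5, 2.25 and 2.65 CPM in shMEK5 and 0.423, 0.421 and 0.35 CPM in shCTRL (log2 fold change -1.49, SE 0.10, adjusted p = 3.74e-06). The genes higher in shERK5 included Mmp14, Plau, Spp1 and the basement membrane chains Col4a1 and Col4a2, which overlap on the genome. Col4a1 stood at 872, 868 and 886 CPM in shERK5, 558 and 558 CPM in shMEK5 and 632, 639 and 614 CPM in shCTRL (log2 fold change 0.65, SE 0.04, adjusted p = 2.38e-06). The summed fibroblast markers were lower in shERK5 (22.8 to 28.2 CPM) than in shMEK5 (34.2 to 35.8 CPM) and in shCTRL (31.6 to 47 CPM). Of these markers, Dcn, Lum, Col3a1 and Thy1 were at 3 reads or fewer. The part of the fibroblast markers in these differences was not tested.

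Of the transcription factors that drive the transition, 15 were tested, 4 were lower in shERK5 (26.7%, beside 17.4% of all genes) and 3 higher (20%, beside 22%), with a median of -0.10. With so few factors, these shares are near those of all genes. Sox4 stood at 145, 128 and 140.1 CPM in shERK5, 293 and 262 CPM in shMEK5 and 205, 228 and 244 CPM in shCTRL (log2 fold change -1.0, SE 0.08, adjusted p = 1.17e-05), with the control in between. Zeb2, a repressor of E-cadherin, stood at 154, 131 and 117 CPM in shERK5, 188 and 180.5 CPM in shMEK5 and 187, 158 and 171 CPM in shCTRL (log2 fold change -0.46, SE 0.11, adjusted p = 0.00903), with an adjusted p of 0.0715 without shMEK5 replicate 1. Ets1 stood at 699, 683 and 723 CPM in shERK5, 909 and 899.8 CPM in shMEK5 and 448, 491 and 508 CPM in shCTRL (log2 fold change -0.37, SE 0.06, adjusted p = 0.000681), and both knockdowns lay above the control. Snai1, another repressor of E-cadherin, stood at 1.97, 1.86 and 2.59 CPM in shERK5, 1.93 and 2.19 CPM in shMEK5 and 1.29, 1.73 and 1.69 CPM in shCTRL and did not pass the test (log2 fold change 0.03, SE 0.12, adjusted p = 0.866), like Twist1. Snai3 stood at 7.97, 7.06 and 8.28 CPM in shERK5, 3.5 and 4.5 CPM in shMEK5 and 0.865, 1.31 and 1.14 CPM in shCTRL (log2 fold change 0.81, SE 0.12, adjusted p = 0.000503). Id1, an inhibitor of helix-loop-helix factors, stood at 8.75, 7.38 and 7.89 CPM in shERK5, 6.11 and 4.82 CPM in shMEK5 and 11.8, 10.3 and 10.9 CPM in shCTRL (log2 fold change 0.48, SE 0.11, adjusted p = 0.00476). Snai3 was lowest in shCTRL and highest in shERK5, without overlap, whereas Id1 was highest in shCTRL. Id1 lost its call without shMEK5 replicate 2 (limma adjusted p = 0.0593), and then 1 factor in place of 3 was higher. Only 2 in place of 4 were lower without shMEK5 replicate 1. Zeb1, Snai2 and Twist2 were below the filter.

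TGF-beta signalling and YAP/TAZ targets held single large differences. TGF-beta ligands signal through type I and type II receptors to SMAD factors, and YAP and TAZ are co-activators of TEAD factors that respond to cell shape and contact. Of 32 tested TGF-beta and BMP genes, 11 were lower in shERK5 (34.4%, beside 17.4% of all genes), 2 were higher (6.25%, beside 22%) and 19 did not pass the test, with a median of -0.14. The ligand gene Tgfb2 stood at 4.99, 4.66 and 4.54 CPM in shERK5, 15.1 and 13 CPM in shMEK5 and 1.63, 2.36 and 2.12 CPM in shCTRL (log2 fold change -1.39, SE 0.11, adjusted p = 1.07e-05). The type II receptor gene Tgfbr2 ran the other way and stood at 180.2, 191 and 193 CPM in shERK5, 112 and 109 CPM in shMEK5 and 87.4, 86.5 and 90.7 CPM in shCTRL (log2 fold change 0.76, SE 0.05, adjusted p = 2.89e-06). For both genes the groups did not overlap and shCTRL was the lowest. Skil, a SMAD co-repressor, stood at 161, 146 and 141 CPM in shERK5, 253 and 247 CPM in shMEK5 and 231, 211 and 229 CPM in shCTRL (log2 fold change -0.74, SE 0.06, adjusted p = 1.6e-05).

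Of 19 tested YAP/TAZ genes, 5 were lower in shERK5 (26.3%, beside 17.4% of all genes), 3 higher (15.8%, beside 22%) and 11 did not pass the test, with a median of -0.13. These shares too are near those of all genes. Ccn2, connective tissue growth factor, stood at 8.9, 8.51 and 8.52 CPM in shERK5, 42 and 42.6 CPM in shMEK5 and 9.38, 10.6 and 9.33 CPM in shCTRL (log2 fold change -2.17, SE 0.07, adjusted p = 6.04e-08). Its shERK5 libraries lay just below shCTRL and its shMEK5 libraries far above. Ccn1, another widely used target that was chosen after its values were seen, stood at 361, 318 and 343 CPM in shERK5, 395 and 364 CPM in shMEK5 and 81.8, 104 and 105 CPM in shCTRL and did not pass the test (log2 fold change -0.16, SE 0.11, adjusted p = 0.276). Ccn1 was high in both knockdowns, whereas Ccn2 was high in shMEK5. Dlc1, a GTPase-activating protein gene, stood at 3.03, 3.63 and 3.17 CPM in shERK5, 9.52 and 9.57 CPM in shMEK5 and 4.05, 4.68 and 3.94 CPM in shCTRL (log2 fold change -1.30, SE 0.10, adjusted p = 5.08e-06). Axl, a receptor kinase, stood at 1090.2, 1232 and 1264 CPM in shERK5, 1652 and 1789.6 CPM in shMEK5 and 1429.9, 1426 and 1470.1 CPM in shCTRL (log2 fold change -0.53, SE 0.07, adjusted p = 0.000143).

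Feedback genes of the related kinases ERK1/2 and immediate early genes held few large differences. Of 21 tested feedback genes, 7 were lower in shERK5 (33.3%, beside 17.4% of all genes) and 2 were higher (9.52%, beside 22%), with a median of -0.16. The number lower was 4 without shMEK5 replicate 2. Spry1, an inhibitor of growth factor signalling, stood at 1.69, 2.31 and 2.52 CPM in shERK5, 8.29 and 7.34 CPM in shMEK5 and 8.8, 8.07 and 8.54 CPM in shCTRL (log2 fold change -1.48, SE 0.12, adjusted p = 7.86e-06), with shMEK5 close to the control. Dusp4, a phosphatase that acts on ERK1/2, stood at 86.5, 78.8 and 89.4 CPM in shERK5, 107 and 104 CPM in shMEK5 and 168, 169.7 and 165 CPM in shCTRL (log2 fold change -0.31, SE 0.06, adjusted p = 0.00194). Epha2 was higher in shERK5, at 970, 952 and 1025 CPM. Its shMEK5 libraries had 702 and 741 CPM and its shCTRL libraries 654, 748 and 738 CPM (log2 fold change 0.45, SE 0.06, adjusted p = 0.000384). Of 24 tested immediate early and AP-1 genes, 4 were lower (16.7%, beside 17.4% of all genes) and 5 higher (20.8%, beside 22%), which is the background share in each direction. The number lower was 2 without shMEK5 replicate 2. The number higher was 1 without shMEK5 replicate 1, and it was 3 without shMEK5 replicate 2 or shERK5 replicate 3, with TMM or RLE scaling, with edgeR or DESeq2 on the recovered reads, with no filter, with moderation neither robust nor with a trend and with the replicate block. Maff, a small MAF factor, stood apart at 26.8, 27.7 and 28.2 CPM in shERK5, 108 and 111 CPM in shMEK5 and 64.5, 77.1 and 79.6 CPM in shCTRL (log2 fold change -1.95, SE 0.08, adjusted p = 1.52e-07). Srf, serum response factor, stood at 90.1, 87.9 and 93.7 CPM in shERK5, 68.6 and 67.9 CPM in shMEK5 and 51.9, 53.3 and 50.2 CPM in shCTRL (log2 fold change 0.40, SE 0.05, adjusted p = 0.000195). Maff and Sgk1 share an order, with shMEK5 above and shERK5 below the control.

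Genes of cell division were lower after ERK5 knockdown. Of 50 tested genes of G2, mitosis and the spindle, 47 were lower in shERK5 than in shMEK5 (94%, beside 17.4% of all genes), 0 were higher and 3 did not pass the test, with a median of -0.62. Without single libraries the number lower ran from 38 to 50. Against shCTRL, 18 of these genes were lower in shMEK5, where 25.6% of all tested genes were, and 49 in shERK5, where 31.3% were, with medians of -0.19 and -0.83. Nusap1, a spindle protein (chromosome 2, 119618298 to 119650165), stood apart at 21.7, 20.9 and 18.6 CPM in shERK5, 93 and 104 CPM in shMEK5 and 126, 106 and 107 CPM in shCTRL (log2 fold change -2.22, SE 0.09, adjusted p = 1.52e-07). It overlaps Oip5 on the genome. Tpx2, an activator of Aurora A, stood at 66.5, 69.6 and 69.4 CPM in shERK5, 145 and 148 CPM in shMEK5 and 167, 149.6 and 148 CPM in shCTRL (log2 fold change -1.09, SE 0.06, adjusted p = 8.46e-07). For Nusap1 and Tpx2 the shMEK5 libraries lay just under or at the lower end of shCTRL. Racgap1, needed for the final cut between daughter cells, stood at 95, 94.8 and 98.1 CPM in shERK5, 159 and 164 CPM in shMEK5 and 168, 166 and 159 CPM in shCTRL (log2 fold change -0.75, SE 0.05, adjusted p = 2.38e-06). In bulk RNA, fewer dividing cells and less RNA per dividing cell cannot be told apart.

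Other mitotic genes varied more within groups. Mki67, the proliferation antigen, chosen after its values were seen, stood at 98, 52.8 and 52.5 CPM in shERK5, 145 and 129 CPM in shMEK5 and 272, 192 and 208 CPM in shCTRL (log2 fold change -1.06, SE 0.27, adjusted p = 0.0172). The call of Mki67 was lost without shMEK5 replicate 1 or 2 or shERK5 replicate 2 (limma adjusted p = 0.123, 0.0746 and 0.0607). The members that did not pass the test were Knl1, Smc4 and Kif20b, with adjusted p between 0.0561 and 0.0798. Knl1, a kinetochore scaffold, stood at 51.4, 32 and 28.6 CPM in shERK5, 64.1 and 53.7 CPM in shMEK5 and 124, 91.9 and 96.3 CPM in shCTRL (log2 fold change -0.68, SE 0.24, adjusted p = 0.0561). Smc4, a condensin subunit, stood at 127, 82.3 and 75.6 CPM in shERK5, 146 and 140.3 CPM in shMEK5 and 244, 165 and 178 CPM in shCTRL (log2 fold change -0.62, SE 0.24, adjusted p = 0.0702), and Kif20b, a kinesin, stood at 23.2, 14 and 12.9 CPM in shERK5, 25.7 and 24.3 CPM in shMEK5 and 51.7, 37.6 and 39.1 CPM in shCTRL (log2 fold change -0.60, SE 0.24, adjusted p = 0.0798). For Mki67, Knl1, Smc4 and Kif20b, replicate 1 was the highest library of every group, shMEK5 included. For each of these genes the shERK5 libraries all lay below the shMEK5 libraries. Without shERK5 replicate 1, Knl1, Smc4 and Kif20b passed the test (limma adjusted p = 0.00177, 0.00721 and 0.000817), and Knl1 also did without shCTRL replicate 2 (0.0476). With the replicate block, Knl1, Smc4 and Kif20b passed as well (limma adjusted p = 0.00825, 0.0231 and 0.0316). Among genes with a mean of at least 5 CPM, Knl1 and Smc4 passed (0.0364 and 0.0471). Knl1 also passed with moderation neither robust nor with a trend (0.0408).

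Genes of S phase were lower too, by less. Of 50 tested, 35 were lower in shERK5 (70%, beside 17.4% of all genes), 1 was higher (2%, beside 22%) and 14 did not pass the test, with a median of -0.34. Against shCTRL, 20 were higher in shMEK5 (40%, beside 23.1% of all genes) and 8 lower (16%, beside 25.6%), with a median of 0.09. In shERK5, 9 were higher than in shCTRL (18%, beside 32%) and 26 lower (52%, beside 31.3%), with a median of -0.20. Chaf1b, a subunit of the complex that loads histones on new DNA, stood at 11.7, 12.7 and 12.1 CPM in shERK5, 22.7 and 23.2 CPM in shMEK5 and 29.3, 27.5 and 25.5 CPM in shCTRL (log2 fold change -0.86, SE 0.07, adjusted p = 1.3e-05). Clspn, a checkpoint adaptor, stood at 24.5, 22.1 and 22.2 CPM in shERK5, 37.2 and 34.4 CPM in shMEK5 and 25.6, 25.1 and 24.2 CPM in shCTRL (log2 fold change -0.62, SE 0.07, adjusted p = 7.13e-05). Mcm7, part of the replicative helicase, stood at 93.5, 102 and 98.6 CPM in shERK5, 155 and 151 CPM in shMEK5 and 197, 184 and 174 CPM in shCTRL (log2 fold change -0.64, SE 0.06, adjusted p = 3.06e-05) and overlaps Ap4m1 and microRNA genes. In all 3 genes shERK5 lay below shMEK5 without overlap, and for Clspn it overlapped shCTRL. Pcna, the sliding clamp of replication, chosen after its values were seen, stood at 184, 195 and 191 CPM in shERK5, 247 and 245 CPM in shMEK5 and 247, 246 and 235 CPM in shCTRL (log2 fold change -0.37, SE 0.05, adjusted p = 0.000196), with shMEK5 in the range of shCTRL. The member that was higher was Gins3, also named after its values were seen, which stood at 21.1, 21.8 and 23.1 CPM in shERK5, 17.5 and 18.5 CPM in shMEK5 and 20.7, 23.2 and 21.5 CPM in shCTRL (log2 fold change 0.28, SE 0.07, adjusted p = 0.0116), and its call ended without shMEK5 replicate 1 (limma adjusted p = 0.0959).

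Replication-dependent histone genes, whose RNAs carry no poly(A) tail, were mostly below shCTRL in both knockdowns: 44 of 58 were lower in shMEK5 (75.9%, beside 25.6% of all genes) and 54 in shERK5 (93.1%, beside 31.3%), with medians of -1.05 and -1.58. Directly compared, 28 were lower in shERK5 than in shMEK5 (48.3%, beside 17.4%), 1 was higher (1.72%, beside 22%) and 29 did not pass the test, with a median of -0.49. Fewer were called lower without shMEK5 replicate 1 or 2, as was so over all tested genes. H2bc13 stood at 25.3, 22.9 and 23.1 CPM in shERK5, 37.7 and 36.8 CPM in shMEK5 and 94.5, 97.1 and 86.7 CPM in shCTRL (log2 fold change -0.63, SE 0.07, adjusted p = 5.64e-05), and H2bc11 stood at 108, 92.9 and 96.7 CPM in shERK5, 151 and 169 CPM in shMEK5 and 338, 384 and 315 CPM in shCTRL (log2 fold change -0.69, SE 0.09, adjusted p = 0.000346). For both, shERK5 was the lowest group and shCTRL the highest. The member higher in shERK5 was H2bc21, which stood at 10.6, 10.8 and 10.8 CPM in shERK5, 6.72 and 7.13 CPM in shMEK5 and 9.78, 10.1 and 9.7 CPM in shCTRL (log2 fold change 0.57, SE 0.07, adjusted p = 0.000155). Of the tested members, 5 held exactly the reads of another listed gene in every library, as H3c14 and H3c15 did, so single members are uncertain.

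Genes of the lysosome and of autophagy were higher after ERK5 knockdown than after MEK5 knockdown. Lysosomes degrade cell material with acid hydrolases, kept acid by a proton pump, and TFEB, TFE3 and MITF are their known regulators. Of 36 tested genes, 25 were higher in shERK5 than in shMEK5 (69.4%, beside 22% of all genes), with a median of 0.32. Lower were 5 (13.9%, near the 17.4% of all genes), and 6 did not pass the test. Against shCTRL, 21 were lower in shMEK5 (58.3%, beside 25.6% of all genes) and 3 higher (8.33%, beside 23.1%), with a median of -0.28. In shERK5, 13 were lower than in shCTRL (36.1%, beside 31.3%) and 14 higher (38.9%, beside 32%), near the shares of all genes, with a median of 0.06. Gla, alpha-galactosidase A, stood at 44, 45.5 and 43.5 CPM in shERK5, 24.6 and 24.3 CPM in shMEK5 and 38, 40.4 and 37.2 CPM in shCTRL (log2 fold change 0.83, SE 0.06, adjusted p = 3.74e-06). Ctsd, the protease cathepsin D, stood at 441, 472 and 457 CPM in shERK5, 300.0 and 312 CPM in shMEK5 and 442, 429.6 and 405 CPM in shCTRL (log2 fold change 0.57, SE 0.05, adjusted p = 2.39e-05). The shMEK5 libraries were the lowest for both. Hexa, a hexosaminidase subunit that overlaps Tmem202, stood at 143, 135 and 141 CPM in shERK5, 82.4 and 82.2 CPM in shMEK5 and 66.9, 72.3 and 75.2 CPM in shCTRL (log2 fold change 0.75, SE 0.06, adjusted p = 7.24e-06), and here shCTRL was the lowest. Atp6v0d1, part of the proton pump, stood at 115, 123 and 123 CPM in shERK5, 67.8 and 77.1 CPM in shMEK5 and 78.5, 86.6 and 86.6 CPM in shCTRL (log2 fold change 0.72, SE 0.07, adjusted p = 2.78e-05). Lamp1, a lysosome membrane protein shown above for its 4 CACGTG matches and chosen after its values were seen, stood at 426, 442 and 460.4 CPM in shERK5, 329 and 339.6 CPM in shMEK5 and 418, 435 and 423 CPM in shCTRL (log2 fold change 0.40, SE 0.05, adjusted p = 0.000137). The 5 members that were lower, also named after their values were seen, were Ulk1, Mitf, Map1lc3a, Psap and Wipi1. Without shMEK5 replicate 1 or 2 the number lower was 2, and without shERK5 replicate 3 it was 3.

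Genes of lipid synthesis and, to a lesser degree, of the unfolded protein response were more often higher in shERK5 than lower. The same was true of all tested genes, by a smaller margin. Of 35 tested genes of cholesterol and fatty acid synthesis, 14 were higher in shERK5 (40%, beside 22% of all genes), 3 were lower (8.57%, beside 17.4%) and the median was 0.15. The number higher was 9 without either shMEK5 library. Hsd17b7, which acts late in cholesterol synthesis, stood at 24.2, 25.6 and 26.4 CPM in shERK5, 15.4 and 15.4 CPM in shMEK5 and 10.1, 10.5 and 10.5 CPM in shCTRL (log2 fold change 0.69, SE 0.07, adjusted p = 3.06e-05). Insig1, the feedback brake of the pathway, stood at 14.3, 15 and 13.8 CPM in shERK5, 21.5 and 20.7 CPM in shMEK5 and 30.4, 27.8 and 25.1 CPM in shCTRL (log2 fold change -0.52, SE 0.08, adjusted p = 0.000661). Of 33 tested genes of the unfolded protein and ATF4 responses, 11 were higher (33.3%, beside 22% of all genes), 5 lower (15.2%, near the 17.4% of all genes) and the median was 0.08. The median was 0.05 with TMM or RLE scaling and with edgeR or DESeq2 on the recovered reads. The number lower was 3 without shMEK5 replicate 2, shERK5 replicate 1 or shERK5 replicate 3, and with moderation neither robust nor with a trend. Xbp1, the factor activated by splicing through IRE1, stood at 225, 233 and 242 CPM in shERK5, 131 and 143 CPM in shMEK5 and 119.9, 124 and 123 CPM in shCTRL (log2 fold change 0.77, SE 0.06, adjusted p = 4.68e-06). Ern1, which encodes IRE1, stood at 80.4, 86.3 and 89.5 CPM in shERK5, 54.2 and 49.6 CPM in shMEK5 and 72.4, 67.3 and 71.6 CPM in shCTRL (log2 fold change 0.71, SE 0.06, adjusted p = 2.03e-05), and the secreted factor Manf stood at 220.5, 245 and 238 CPM in shERK5, 148 and 159 CPM in shMEK5 and 135, 132 and 129 CPM in shCTRL (log2 fold change 0.61, SE 0.06, adjusted p = 2.73e-05). All 3 were highest in shERK5. Shmt2, a one-carbon enzyme on the ATF4 side of the list that overlaps Ndufa4l2, stood at 283, 272 and 276 CPM in shERK5, 439 and 449 CPM in shMEK5 and 513, 535 and 487 CPM in shCTRL (log2 fold change -0.68, SE 0.05, adjusted p = 6e-06).

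**Figure D3:**
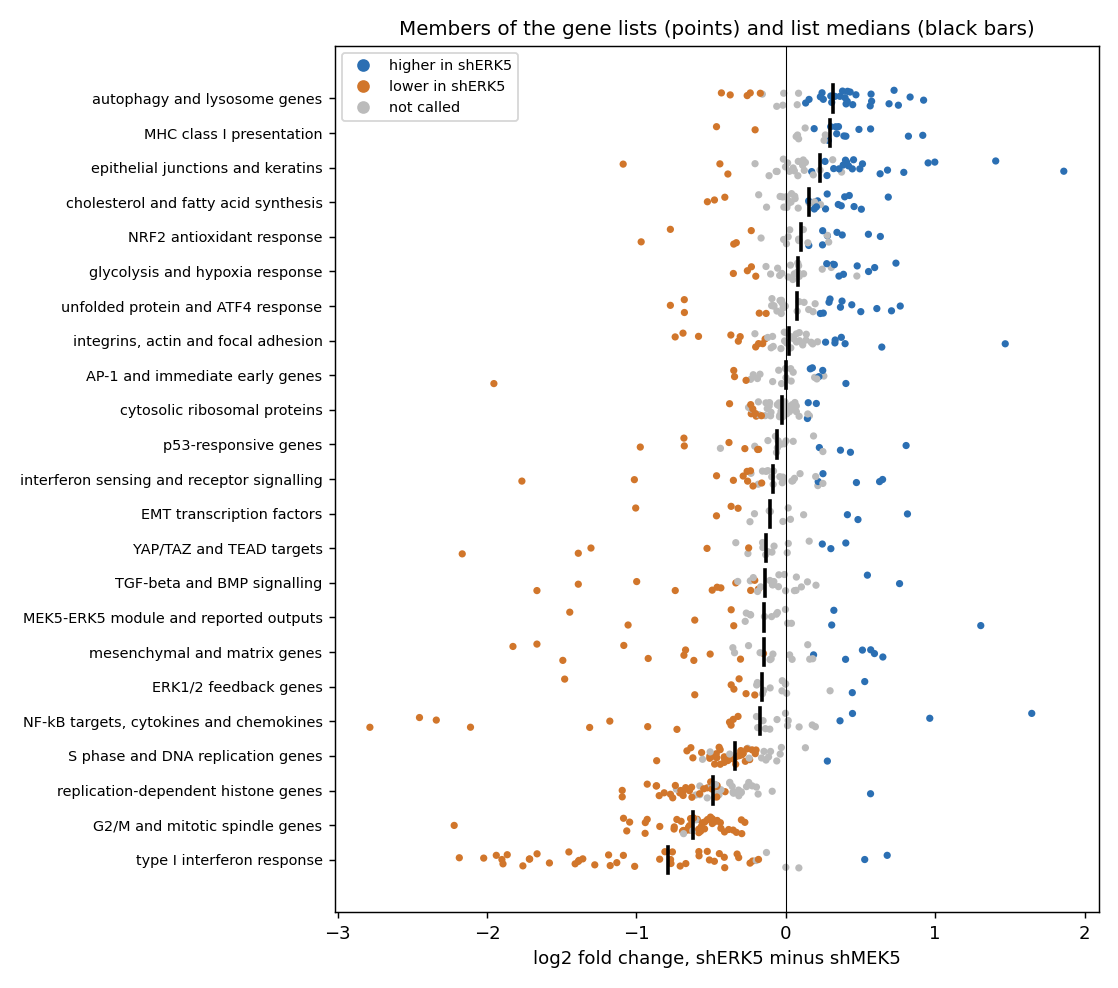
Each point is a tested member of a gene list, placed by its log2 fold change, shERK5 minus shMEK5, on the horizontal axis; blue marks members called higher in shERK5, orange those called lower, grey the rest, and black bars the list medians. The lists are ordered by median, from interferon response (-0.79) and mitosis (-0.62) to MHC class I (0.29) and autophagy and lysosome (0.32).

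Adhesion genes and ribosomal protein genes had medians near 0. Of 40 tested integrin, actin and focal adhesion genes, 7 were higher in shERK5 (17.5%, beside 22% of all genes) and 10 lower (25%, beside 17.4%), both near the shares of all genes. The number lower was 5 or 6 without shMEK5 replicate 1 or 2, and the median of 0.02 was just under 0 with TMM or RLE scaling. Itgb7, an integrin beta chain best known from lymphocytes, stood at 175, 167 and 167 CPM in shERK5, 60.6 and 60.8 CPM in shMEK5 and 107, 111 and 114 CPM in shCTRL (log2 fold change 1.47, SE 0.05, adjusted p = 6.04e-08). Itga2, a collagen-binding chain, stood at 51.8, 49.7 and 47.3 CPM in shERK5, 73.4 and 76.3 CPM in shMEK5 and 57.6, 49.4 and 51.3 CPM in shCTRL (log2 fold change -0.58, SE 0.07, adjusted p = 0.000129). Of 51 tested cytosolic ribosomal protein genes, 3 were higher (5.88%, beside 22% of all genes), 7 lower (13.7%, beside 17.4%) and 41 did not pass the test, with a median of -0.02. The number higher was 1 without either shMEK5 library, without shERK5 replicate 3, with TMM or RLE scaling, with edgeR or DESeq2 on the recovered reads and with moderation neither robust nor with a trend, and the number lower was 4 without shMEK5 replicate 2.

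The genes with the largest differences among those with at least 5 CPM on average and no overlap of the knockdowns were taken as 12 in each direction. Highest in shERK5 was Tmem179, a transmembrane protein gene (chromosome 12, 112500184 to 112511160), which stood at 25, 23.6 and 25.3 CPM in shERK5, 1.74 and 2.27 CPM in shMEK5 and 3.65, 4.44 and 4.09 CPM in shCTRL (log2 fold change 3.10, SE 0.10, adjusted p = 5.5e-08). Its shERK5 libraries were far above shCTRL and its shMEK5 libraries below. Cldn4, Lcn2, Itgb7, Crb3 and Map2k5, given above, were among the 12. Rhpn2, which overlaps Faap24, stood at 27.3, 28.1 and 30.2 CPM in shERK5, 7.78 and 9.61 CPM in shMEK5 and 10.5, 10.3 and 8.95 CPM in shCTRL (log2 fold change 1.61, SE 0.10, adjusted p = 1.69e-06). Lat2, an adaptor of immune receptors, stood at 22.5, 23.7 and 22.1 CPM in shERK5, 6.59 and 8.01 CPM in shMEK5 and 11.2, 11.4 and 10.6 CPM in shCTRL (log2 fold change 1.52, SE 0.09, adjusted p = 1.06e-06). Rab17, a small GTPase of epithelial transport, stood at 10, 12 and 10.2 CPM in shERK5, 2.51 and 3.89 CPM in shMEK5 and 4.96, 5.05 and 4.36 CPM in shCTRL (log2 fold change 1.50, SE 0.14, adjusted p = 2.04e-05). In 9 of the 12, the shCTRL mean lay between those of the knockdowns, and in 3 below both. Padi1, a peptidylarginine deiminase gene that overlaps Gm13032, stood at 68.7, 70.6 and 69.3 CPM in shERK5, 25.9 and 27.8 CPM in shMEK5 and 33.7, 35.9 and 35.2 CPM in shCTRL (log2 fold change 1.34, SE 0.06, adjusted p = 1.6e-07). Gpa33, a surface antigen of gut epithelium, stood at 205, 206 and 216 CPM in shERK5, 88.7 and 84.8 CPM in shMEK5 and 101, 104 and 102 CPM in shCTRL (log2 fold change 1.26, SE 0.05, adjusted p = 1.16e-07), and the ligand gene Wnt7a stood at 9.83, 13.1 and 12.3 CPM in shERK5, 4.03 and 4.88 CPM in shMEK5 and 3.52, 3.49 and 3.26 CPM in shCTRL (log2 fold change 1.22, SE 0.12, adjusted p = 3e-05).

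Of the 12 genes lowest in shERK5, Ccl2, Cxcl10, Nusap1, Cmpk2, Ccn2, Maff and Usp18 are given above. Rhox5, an X-linked homeobox gene, stood at 3.48, 4.47 and 3.96 CPM in shERK5, 23.7 and 25.6 CPM in shMEK5 and 3.09, 3.2 and 2.71 CPM in shCTRL (log2 fold change -2.37, SE 0.10, adjusted p = 1.68e-07). Tnnt2, cardiac troponin T, stood at 13, 13.1 and 13.9 CPM in shERK5, 64.4 and 70.5 CPM in shMEK5 and 21.9, 23.4 and 21.8 CPM in shCTRL (log2 fold change -2.26, SE 0.07, adjusted p = 4.09e-08). Tnnt2 had the control between the knockdowns, whereas for Rhox5 shCTRL was the lowest. Adamtsl3, a matrix protein, was under shCTRL in both knockdowns and stood at 2.18, 1.6 and 1.64 CPM in shERK5, 13.3 and 12.5 CPM in shMEK5 and 23.7, 24.4 and 25.7 CPM in shCTRL (log2 fold change -2.32, SE 0.10, adjusted p = 1.6e-07). The matrix protein gene Matn2, which overlaps 9430069I07Rik, stood at 7.04, 6.97 and 5.58 CPM in shERK5, 34.5 and 33.8 CPM in shMEK5 and 25.4, 24.7 and 23.3 CPM in shCTRL (log2 fold change -2.23, SE 0.09, adjusted p = 1.52e-07), and the cytokine receptor chain gene Il18rap stood at 3.2, 2.72 and 1.96 CPM in shERK5, 14.3 and 15.1 CPM in shMEK5 and 6.36, 6.57 and 6.31 CPM in shCTRL (log2 fold change -2.13, SE 0.13, adjusted p = 1.53e-06). The shCTRL mean lay between the knockdowns in 6 of these 12, below both in 4 and above both in 2.

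**Figure D4:**
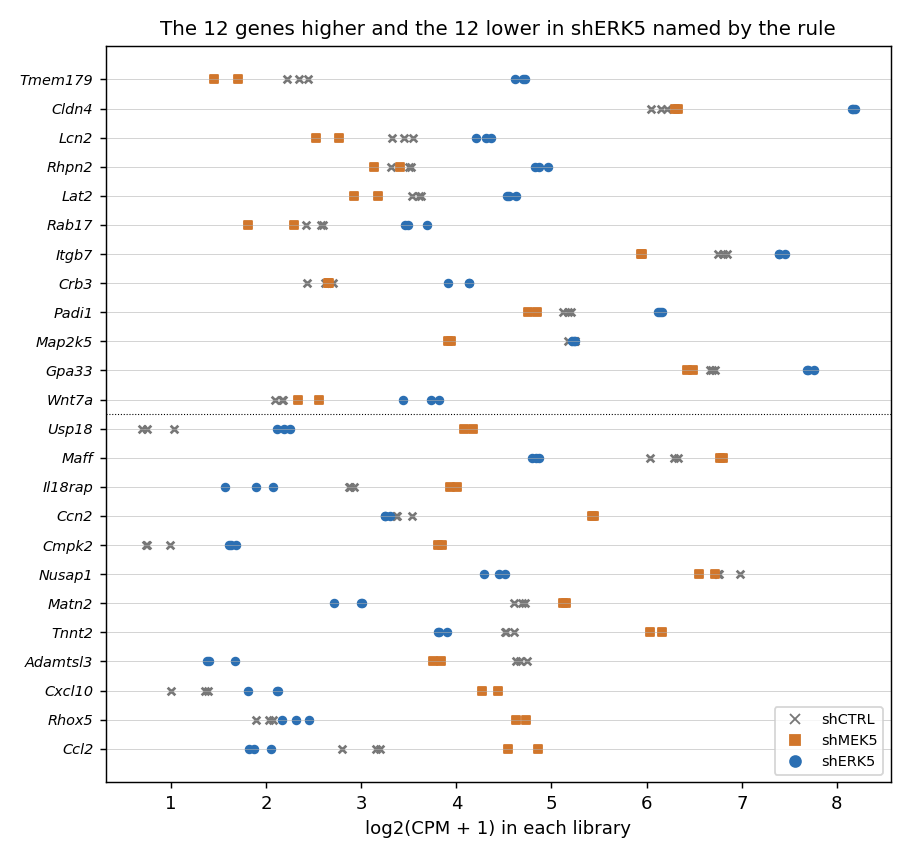
log2(CPM + 1) in each library (horizontal axis) for the 12 genes highest and the 12 lowest in shERK5 (rows, ordered by fold change); crosses are shCTRL, orange squares shMEK5 and blue circles shERK5. The shERK5 and shMEK5 symbols do not overlap in any row, as the choice of genes required, and the shCTRL crosses fall between them in 15 of the 24 genes by group mean.

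By chromosome, called genes were spread over the genome, with some unevenness that was noted after the values were seen. Over all tested genes, 22% were higher in shERK5 and 17.4% lower. On chromosome 8, 224 of 630 tested genes were higher in shERK5 (35.6%) and 66 lower (10.5%), with a median of 0.11. On chromosome 19, 143 of 414 were higher (34.5%) and 34 lower (8.21%), with a median of 0.12. On the X chromosome, 40 of 322 were higher (12.4%) and 70 lower (21.7%), with a median of -0.05. Along chromosome 8, windows of 20 megabases had medians between 0.08 and 0.15, and along chromosome 19 between 0.10 and 0.13, so the shift was not limited to a single window; the last window of chromosome 19 held only 9 genes. Genes named above that lie on chromosome 8 include Cdh1, Col4a1, Col4a2, Lamp1 and Gins3, which were higher in shERK5. Dlc1 and Dusp4, which were lower in shERK5, lie there too.

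**Figure D5:**
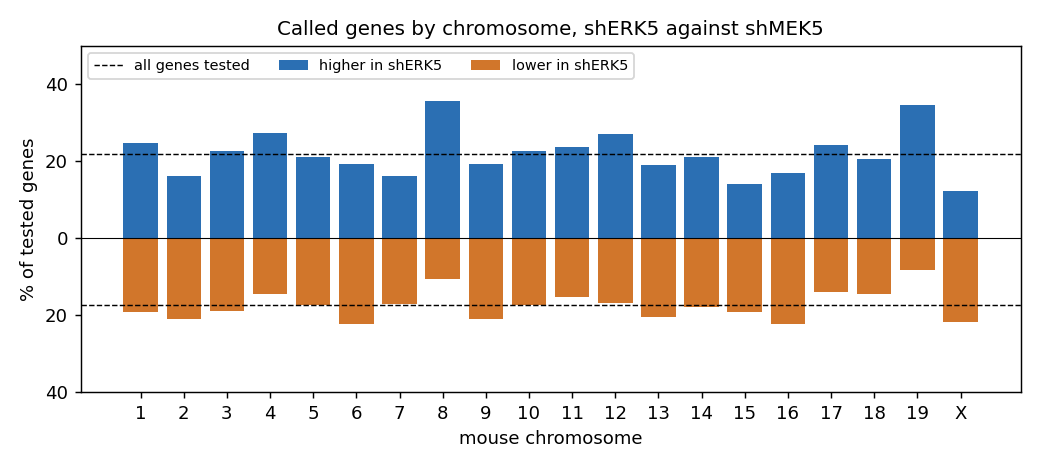
Percent of tested genes called higher (blue, upwards) and lower (orange, downwards) in shERK5 than in shMEK5 on each mouse chromosome; dashed lines mark 22% and 17.4%, the values over all genes tested. Chromosomes 8 and 19 reached 35.6% and 34.5% higher, and the X chromosome 12.4%.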

How the data were processed

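The data are RNA-seq CPM values, reads of each gene scaled to a library total of 1000000, in 8 libraries of 4T1 cells: 3 shCTRL, 2 shMEK5 and 3 shERK5. The authors deposited the CPM, 1 table per library. The submitters' processing notes name STAR and mm10, without versions. Gene annotation, counting, use of strand and treatment of reads with several matches are steps not given in the sources used here. Every CPM value above 0 was a whole multiple of the library's smallest step within 0.05 read, so the reads and the depth of each library could be recovered. Symbols came from RefSeq and GENCODE on GRCm38.p6 by gene ID, with 24374 and 6 of 24454 genes matched and 74 without a name. Overlapping genes are named as such, because their reads may not be told apart.

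Genes with at least 1 CPM in at least 2 libraries were kept. limma 3.58.1 in R 4.3.3 fitted log2(CPM + 1) on group means over all 8 libraries, with trended and robust moderation, and p-values were adjusted by the Benjamini-Hochberg method over all 11623 genes. Alternatives were other added constants, filters and scalings, the knockdown libraries alone, a replicate block, each library left out, and edgeR 4.0.16 and DESeq2 1.42.0 on the recovered reads. edgeR called 4452 genes between the knockdowns. Tested on data simulated for this comparison over 11623 genes, the fit recovered 16 of 50 genes changed 1.25-fold, 46 of 50 changed 1.5-fold, 49 of 50 changed 2-fold and 50 of 50 changed 4-fold, with 0.166% of unchanged genes called. Only 50 genes were changed at each fold there, a far smaller share than the 39.4% called between the knockdowns. These rates need not hold for the data. Replicates differed by more than counting noise, with chi-square per degree of freedom between 7.72 and 39.1, so none was a copy. Replicate numbers were not taken as pairs, because the labels define no pairing. Deviations of same-numbered shMEK5 and shERK5 libraries correlated at 0.465 and 0.518. These values are not independent, because the deviations of the 2 shMEK5 libraries mirror each other. With shCTRL, same-numbered libraries correlated between -0.191 and 0.169, and different-numbered ones between -0.420 and 0.400. Whether the knockdown libraries were paired by number cannot be told from these values. The labels' protocol speaks of 3 replicates a group, and shMEK5 has 2 libraries here.

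The rule for naming took the targets, the 12 genes with the largest difference in each direction and up to 4 members of each of 23 lists with the smallest adjusted p, with any member of the cascade, interferon and epithelial-mesenchymal lists. Some list members that qualified are not described, among them Ier3, Zfp36 and Cdca2, all lower in shERK5. The members and lists were chosen with earlier results of these data known. Il6, Mef2c and other members below the filter have no test. Hairpin and protein sequences were not used here.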

Additional observations from a re-analysis of the deposited data

How the results depend on the processing

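The number of genes called between the knockdowns ran from 2864 to 4825 when single libraries were left out, with 1583 to 2712 higher in shERK5 and 1281 to 2178 lower. The lowest of these values came without shMEK5 replicate 1, where 1 library stands for the MEK5 knockdown and is assumed to vary like the other groups. The counts over all tested genes also fell without shMEK5 replicate 2 and without shERK5 replicate 2 or 3. A fall in the count of a gene list in these settings is to be read beside that fall. The counts of 2-fold differences, 47 higher and 143 lower in shERK5, became 97 higher with an added constant of 0.25, and 18 higher and 66 lower with 4. Among genes with a mean of at least 5 CPM they were 31 and 89, with edgeR 110 and 244, and with DESeq2 110 and 246. Without single libraries they ran from 47 to 55 higher and from 126 to 154 lower. TMM scaling moved the share of calls higher in shERK5 from 55.9% to 50.9%. With a replicate block, which the labels do not define as a pairing, 4435 genes were called, 4167 of them shared with the 4581. Of 146 named genes tested, 18 changed their call under at least 1 of 19 settings, and none of them changed direction.

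The small groups limit these data, because with 2 shMEK5 libraries the spread is borrowed from all groups. On simulated data most 1.25-fold changes were missed. Far fewer genes were changed there than were called here, so that rate need not hold for these data.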

Other observations

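Lists of stress and metabolic genes not described above had medians between -0.06 and 0.10. Of 24 tested p53-responsive genes, 4 were higher in shERK5 (16.7%, beside 22% of all tested genes) and 7 lower (29.2%, beside 17.4%), with a median log2 fold change of -0.06. Without shMEK5 replicate 2, 2 were higher and 4 lower. Of 30 tested glycolysis and hypoxia genes, 9 were higher (30%, beside 22%) and 4 lower (13.3%, beside 17.4%), with a median of 0.08. The number lower was 2 with the replicate block, without shMEK5 replicate 1 or without shERK5 replicate 1, and 1 without shMEK5 replicate 2. Of 24 tested NRF2 targets, 8 were higher (33.3%, beside 22%) and 5 lower (20.8%, beside 17.4%), with a median of 0.10. Without either shMEK5 library or shERK5 replicate 2, and with TMM or RLE scaling, edgeR on the recovered reads, no filter, or moderation neither robust nor with a trend, 5 NRF2 targets were higher, and without shERK5 replicate 3, 4 were.

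Cap1, which encodes an actin-binding cyclase-associated protein and was chosen after its values were seen, stood at 289, 309 and 309 CPM in shERK5, 130.2 and 140.5 CPM in shMEK5 and 304, 300.3 and 298 CPM in shCTRL (log2 fold change 1.16, SE 0.05, adjusted p = 2.51e-07). Its shMEK5 libraries lay far below the rest and its shERK5 libraries overlapped shCTRL, as for Map2k5.

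Among RNA classes, 9 of 39 tested small nucleolar RNA genes (23.1%) and 4 of 31 microRNA genes (12.9%) were lower in shERK5. Both shares are near the 17.4% of all genes. In either class 0 were higher, beside 22% of all genes. Of 320 tested long non-coding RNA genes, 73 were higher (22.8%) and 33 lower (10.3%), beside 22% and 17.4% of all genes, with a median of 0.08.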
